A study of Mus musculus with 4 samples.

Results

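Genes of the Wnt pathway that act from the ligand to its nuclear partners were followed across 4 pairs of cultured mouse intestinal epithelium. They comprised every gene whose symbol begins with Wnt, Fzd, Sfrp, Dkk or Rspo and a digit, together with a fixed set of further receptors, antagonists, ligand-processing enzymes and nuclear partners. Of 15123 genes with a named probe, 51 fell under this rule. They were 19 Wnt ligands, 9 Frizzled receptors, 11 secreted antagonists, 3 R-spondins, 2 Lrp co-receptors, 2 genes of ligand processing and 5 genes of the cytoplasm and nucleus. Fzd9, Rspo4, Lgr4, Lgr6 and the noncoding Fzd10os were not analysed here.

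Every culture came from wild-type CD1 mice. There were 4 animals: 2 fetuses taken on day 16 of gestation (E16), 1 fetus taken on day 18 (E18) and 1 pup taken on its day of birth (P0). From the small intestine of each animal, spheroids (round, hollow structures) and organoids (structures with crypt-like buds) were picked from the same culture and carried for 3 further passages, each kind on its own. All cultures of both kinds received 50 ng/ml EGF, 100 ng/ml Noggin, 500 ng/ml R-spondin1 and 2% fetal bovine serum, so an R-spondin was supplied to both sides of every ratio. Spheroid and organoid RNA of an animal were compared on 2-colour arrays of long oligonucleotide probes with the dyes swapped, and the title of the study concerns spheroid-forming progenitors that do not depend on Lgr5.

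Wnt proteins are lipid-modified by Porcn in the endoplasmic reticulum and carried to the cell surface by Wls. They bind a Frizzled receptor together with Lrp5 or Lrp6, which spares beta-catenin, the product of Ctnnb1, from destruction by a complex that includes Apc, and beta-catenin then acts with Tcf and Lef factors on target genes. R-spondins bind Lgr receptors and keep Frizzled receptors at the surface, whereas Sfrp, Wif1 and Dkk proteins and the lipase Notum hold the pathway back. In the mouse intestine this signal maintains crypt stem cells, with Wnt3 made by Paneth cells and other ligands and R-spondins made by the mesenchyme under the crypt.

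Each value is a log2 ratio per gene and animal, averaged over a gene's probes, with positive values taken as likely higher in spheroids. The basis for that reading is that the titles name the spheroid before the organoid and that the first channel is the spheroid. If the sign were the opposite, all directions below would turn. The base of the logarithm was assumed. The means of 94 negative control probes ran from -0.16 to 0.07 and served as a background range. In single pairs these probes ran wider, down to -0.36 in the E18 pair and up to 0.20 in the second E16 pair. No brightness was available, so a ratio near 0 may belong to a gene at the same level on both sides or to a probe without signal.

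Of the 51 members, 2 passed the threshold in limma (adjusted p under 0.05 over all genes), both higher in spheroids, and 0 were lower. They were the ligand genes Wnt7a and Wnt7b. Over all genes 4.36% passed, 3.02% higher and 1.34% lower, and the members' share of 3.92% lay near that background. At an unadjusted p under 0.05 stood 15 members, 29.4% against 20.9% of all genes. The median of the members' mean ratios was -0.01, against -0.003 over all genes. Means of 31 members, 60.8%, fell within that control range, against 56.9% of all genes. The largest ratios among the members leaned to the positive side. A mean of at least 0.5 was found for 7 members, 13.7% against 5.52% of all genes, and a mean of -0.5 or less for 0 members, against 5.42% of all genes. The members with a mean of at least 0.5 were Wnt4, Porcn, Wnt7b, Fzd6, Fzd1, Wnt7a and Ctnnb1. Each of these 7 genes was read by 1 probe only, so no second probe could be compared with it.

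**Figure D1:**
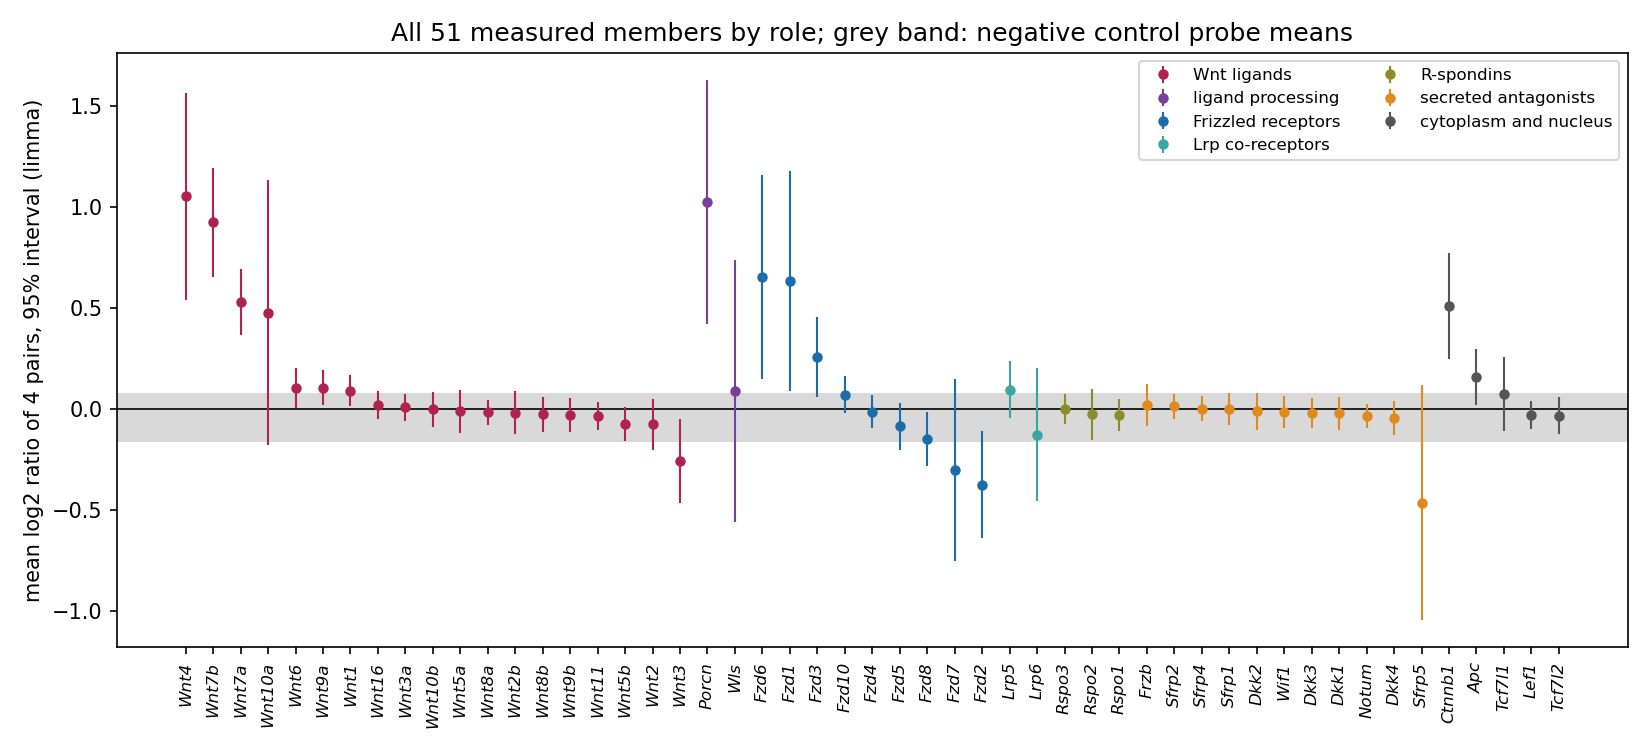
Mean log2 ratio of spheroid over organoid (y axis) for each of the 51 members (x axis), grouped by role; points are means of 4 pairs and bars the 95% intervals from limma. R-spondins and 10 of 11 secreted antagonists lie in the grey control range, while the widest departures are among ligands, Porcn and Frizzled receptors.

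Promoter windows of 5 members are shown: Wnt7a as the member that passed and has a window, Wnt4 and Sfrp5 as the members with the highest and the lowest mean, and Fzd7 and Wnt3 because, of the 8 members given by pair that have a window, only theirs hold the letters searched for. The other 3, Ctnnb1, Fzd1 and Wls, are not printed. The windows are RefSeq windows of 300 bases on mouse build GRCm38.p6, from 250 bases before the annotated start of the gene to 50 after it, and were found for 32 of the 51 members. Capitals mark the letters CTTTGAT or CTTTGTT, core forms of the site bound by Tcf and Lef factors, searched on both strands, so that AACAAAG is CTTTGTT read on the other strand. A position can match only one of these letter strings. The genes shown were picked after their ratios were seen.

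Wnt7a (chr6:91411304-91411603, reverse strand): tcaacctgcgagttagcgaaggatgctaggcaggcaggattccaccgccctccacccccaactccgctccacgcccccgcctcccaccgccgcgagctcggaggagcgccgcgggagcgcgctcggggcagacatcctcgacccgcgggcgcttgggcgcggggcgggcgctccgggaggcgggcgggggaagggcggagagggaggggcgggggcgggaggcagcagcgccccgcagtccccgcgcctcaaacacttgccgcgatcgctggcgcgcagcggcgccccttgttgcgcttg
Wnt4 (chr4:137277385-137277684, forward strand): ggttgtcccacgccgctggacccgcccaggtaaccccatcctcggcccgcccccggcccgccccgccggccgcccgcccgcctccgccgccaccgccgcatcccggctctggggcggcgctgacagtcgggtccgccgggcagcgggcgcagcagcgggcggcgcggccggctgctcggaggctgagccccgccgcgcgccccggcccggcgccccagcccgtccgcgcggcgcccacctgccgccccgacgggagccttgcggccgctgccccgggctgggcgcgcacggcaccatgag
Sfrp5 (chr19:42202203-42202502, reverse strand): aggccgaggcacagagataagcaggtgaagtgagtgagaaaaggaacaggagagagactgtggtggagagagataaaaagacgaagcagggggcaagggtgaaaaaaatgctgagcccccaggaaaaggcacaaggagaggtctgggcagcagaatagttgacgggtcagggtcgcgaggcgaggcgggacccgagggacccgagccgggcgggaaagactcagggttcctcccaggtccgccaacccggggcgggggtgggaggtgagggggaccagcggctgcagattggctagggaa
Fzd7 (chr1:59481897-59482196, forward strand): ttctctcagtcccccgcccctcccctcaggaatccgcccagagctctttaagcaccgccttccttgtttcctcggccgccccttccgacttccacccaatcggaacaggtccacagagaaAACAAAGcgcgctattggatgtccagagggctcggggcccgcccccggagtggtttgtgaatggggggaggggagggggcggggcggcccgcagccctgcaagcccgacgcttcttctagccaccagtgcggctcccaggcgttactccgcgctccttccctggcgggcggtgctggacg
Wnt3 (chr11:103773925-103774224, forward strand): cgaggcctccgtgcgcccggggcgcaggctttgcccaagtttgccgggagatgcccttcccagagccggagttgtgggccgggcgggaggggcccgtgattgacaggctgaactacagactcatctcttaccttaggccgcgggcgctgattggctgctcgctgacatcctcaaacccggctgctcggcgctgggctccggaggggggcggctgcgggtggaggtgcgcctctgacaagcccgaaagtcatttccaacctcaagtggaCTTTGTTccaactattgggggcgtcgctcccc

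CTTTGAT was present in 3.73% and CTTTGTT in 5.85% of all 32851 promoter windows, and 9.33% held either. Of the 40 windows of members, 6 held either, in Dkk1, Fzd7, Tcf7l2, Wnt11, Wnt3 and Wnt5b. Fzd7 and Wnt3 each had a single CTTTGTT match, and Wnt7a, Wnt4, Sfrp5, Ctnnb1, Fzd1 and Wls had none, so that members with positive and with negative means were both without one. The windows of Wnt7a and Wnt4 were 76.0% and 84.3% G and C, those of Sfrp5, Fzd7 and Wnt3 61.3%, 66.7% and 65.7%, and the median over all windows was 52.7%. These matches describe letters in short windows only.

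The closely related ligand genes Wnt7a and Wnt7b rose in spheroids. Wnt7b (Entrez gene 22422), a ligand known for its role in branching of the lung and growth of the kidney medulla, had log2 ratios of 1.14 and 0.85 in the E16 pairs, 0.64 in the E18 pair and 1.06 in the P0 pair. All its pairs were well above the control range, and spheroids stood 1.90-fold over organoids on average, a mean of 0.92 ± 0.22 (SD, n = 4; limma adjusted p = 0.0293). Wnt7a (Entrez gene 22421), known for patterning of the limb and the female reproductive tract, had ratios of 0.67 and 0.61 in the E16 pairs, 0.40 in the E18 pair and 0.44 in the P0 pair. Its 4 values lay close together and spheroids stood 1.44-fold over organoids, a mean of 0.53 ± 0.13 (limma adjusted p = 0.0317).

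Both calls held without the E18 pair (limma adjusted p = 0.0332 for Wnt7b and 0.0467 for Wnt7a) but not with another pair left out. Without the P0 pair the limma adjusted p was 0.106 for Wnt7b and 0.0951 for Wnt7a, without the first E16 pair 0.163 and 0.164, and without the second E16 pair 0.136 and 0.144, while their means stayed between 0.85 and 1.02 and between 0.48 and 0.57 over all pairs left out. With the E16 pairs, which share a stage, averaged to 1 sample, adjusted p was 0.144 and 0.155.

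Wnt4 (Entrez gene 22417), which acts in kidney tubule and female reproductive tract development, had the highest mean of all members. Its ratios were 0.96 and 1.05 in the E16 pairs, 0.57 in the E18 pair and 1.62 in the P0 pair. All 4 pairs were positive, but they spread over more than 1 log2 unit, and the mean of 1.05 ± 0.435, or 2.07-fold, missed the threshold (limma adjusted p = 0.0713, 95% interval 0.54 to 1.56). It passed with array weights (adjusted p = 0.0275) and with the spread of ratios made equal across pairs (adjusted p = 0.0443). The weights favoured the E16 pairs, at 2.08 and 1.39, over the E18 pair (0.55) and the P0 pair (0.63). Without the first or the second E16 pair adjusted p was 0.268 and 0.243, and with the E16 pairs averaged 0.256.

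Wnt10a, a ligand of tooth and skin appendage development, had ratios of 0.08 and 0.19 in the E16 pairs, 1.29 in the E18 pair and 0.33 in the P0 pair. The E18 pair alone was high, and the mean of 0.47 ± 0.56 did not pass (limma adjusted p = 0.373). Without the E18 pair the mean was 0.20.

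Wnt3, the Paneth cell ligand, stood on the negative side. Its ratios were -0.13 and -0.10 in the E16 pairs, -0.44 in the E18 pair and -0.37 in the P0 pair. All 4 were below 0, the E16 values within the range of the control probes, and the mean of -0.26 ± 0.17 did not pass (limma adjusted p = 0.163, 95% interval -0.46 to -0.05). Paneth cell markers had means further below 0: of 7 measured, 3 passed lower (Itln1, Defa31 and Lyz1), all 7 had a mean below -0.5 and none lay inside the control range. Over all genes 1.34% passed lower, 5.42% had a mean of -0.5 or less and 56.9% lay inside that range. Of the 7, 6 were negative in every pair. Mmp7 was not, with ratios of 0.21 and 0.22 in the E16 pairs, -2.47 in the E18 pair and -0.19 in the P0 pair. The median of the 7 markers was -2.94 and -2.57 in the E16 pairs, -4.30 in the E18 pair and -3.99 in the P0 pair. The part of Paneth cell number in the Wnt3 ratio was not tested, and in these cultures fewer cells of a type and less RNA per cell cannot be told apart.

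The other 14 ligand genes, Wnt1, Wnt2, Wnt2b, Wnt3a, Wnt5a, Wnt5b, Wnt6, Wnt8a, Wnt8b, Wnt9a, Wnt9b, Wnt10b, Wnt11 and Wnt16, had means between -0.08 and 0.10, and 11 of them were inside the control range, against 56.9% of all genes. They are the ligands whose ratios were too small to be given by pair. Their single pairs ran from -0.19 to 0.19 and the smallest adjusted p was 0.180. Wnt2b and Wnt5a, which intestinal mesenchyme makes, had means of -0.02 ± 0.0757 and -0.01 ± 0.0761. Wnt9a had 2 probes that differed: 1 had ratios of 0.34 and 0.19 in the E16 pairs, 0.06 in the E18 pair and 0.21 in the P0 pair, and the other stayed between -0.0035 and 0.014.

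**Figure D2:**
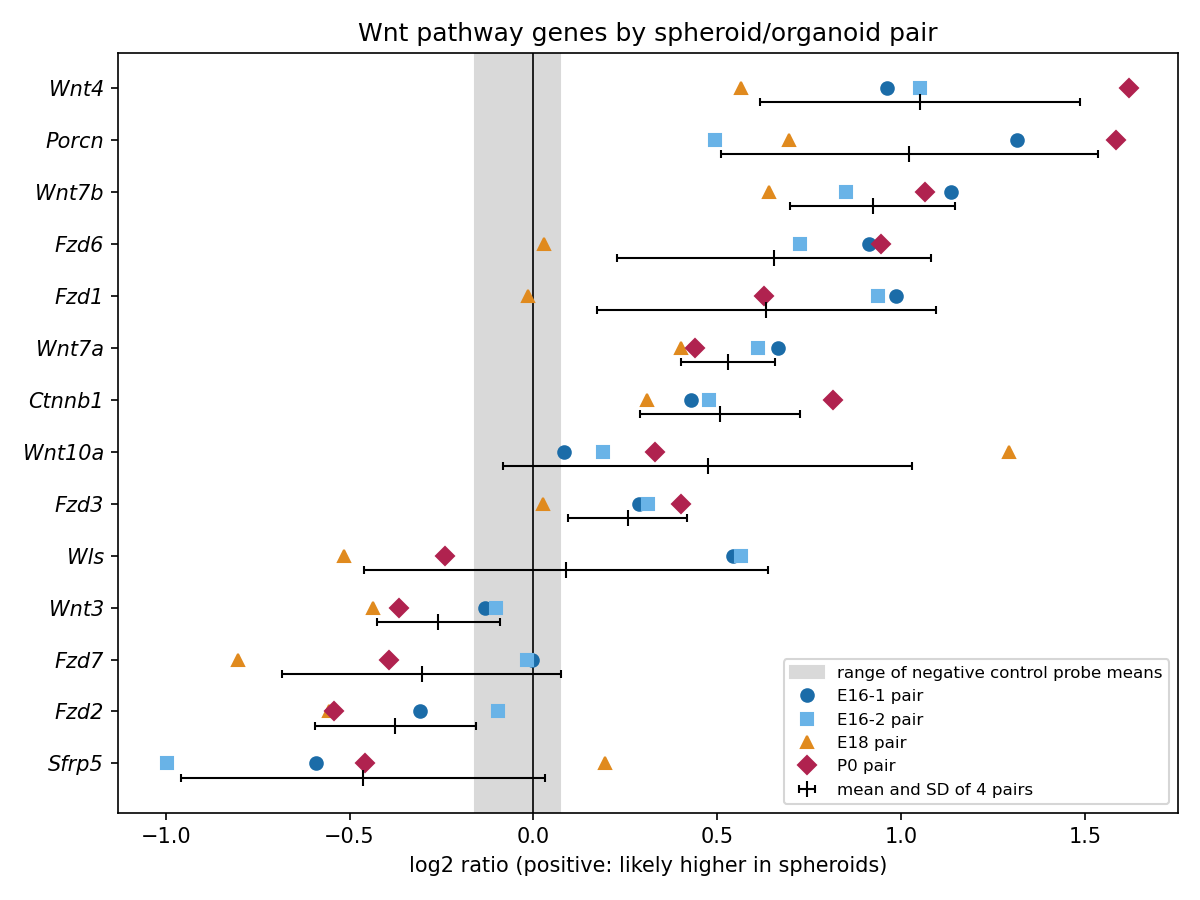
Log2 ratio of spheroid over organoid (x axis) for the 14 members (y axis) that passed a threshold or had a sizeable ratio, one symbol per pair (E16-1 and E16-2 are the first and second E16 animal), with the mean and SD of 4 pairs as a bar below and the range of negative control means in grey. Wnt4, Porcn, Wnt7b, Wnt7a, Ctnnb1 and Wnt10a are above the grey range in all 4 pairs. For Wnt10a the E16 values of 0.08 and 0.19 still lie within the wider range of single control probes. Those probes reached 0.15 in the first and 0.20 in the second E16 pair. Fzd6, Fzd1 and Fzd3 fall into it in the E18 pair alone.

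Porcn (Entrez gene 53627), the acyltransferase that every Wnt ligand but a few relies on for secretion, had a mean close to that of Wnt4. Its ratios were 1.31 and 0.49 in the E16 pairs, 0.70 in the E18 pair and 1.58 in the P0 pair. All 4 pairs were positive, and the 2 E16 animals held the lowest and the next to highest value. The mean of 1.02 ± 0.51, or 2.03-fold, missed the threshold (limma adjusted p = 0.0997, 95% interval 0.42 to 1.63).

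Wls, the carrier that takes Wnt proteins to the surface, split by stage. Its ratios were 0.54 and 0.56 in the E16 pairs, -0.51 in the E18 pair and -0.24 in the P0 pair. The E16 pairs were positive and the later pairs negative, so the mean of 0.09 ± 0.55 says little (limma adjusted p = 0.891). Both probes of Wls had this order, with E16 ratios of 0.61 and 0.55 on 1 probe and 0.47 and 0.58 on the other. In the E18 pair the probes read -0.67 and -0.36, and in the P0 pair -0.44 and -0.04.

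Frizzled receptor genes ran in both directions. Fzd6, a receptor known from planar polarity of hair follicles, had ratios of 0.91 and 0.73 in the E16 pairs, 0.03 in the E18 pair and 0.95 in the P0 pair. Fzd1 had ratios of 0.99 and 0.94 in the E16 pairs, -0.02 in the E18 pair and 0.63 in the P0 pair. Fzd3, which guides axons and acts with Fzd6 in the neural tube, had ratios of 0.29 and 0.31 in the E16 pairs, 0.03 in the E18 pair and 0.40 in the P0 pair.

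In all 3 of these genes the E18 pair lay inside the control range and the other pairs above it. Their means were 0.65 ± 0.43 for Fzd6 (limma adjusted p = 0.156), 0.63 ± 0.46 for Fzd1 (adjusted p = 0.188) and 0.26 ± 0.16 for Fzd3 (adjusted p = 0.158). Without the E18 pair Fzd6 and Fzd1 passed, with means of 0.86 and 0.85 and limma adjusted p of 0.0328 and 0.0485, and Fzd3 did not (adjusted p = 0.0532).

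Fzd7, which mouse intestinal stem cells use as a Wnt receptor, had ratios of -0.0035 and -0.02 in the E16 pairs, -0.80 in the E18 pair and -0.39 in the P0 pair. The E16 pairs were at 0 and the later pairs below the control range, and the mean was -0.30 ± 0.38 (limma adjusted p = 0.405), or -0.14 without the E18 pair. Fzd2 had ratios of -0.31 and -0.10 in the E16 pairs, -0.56 in the E18 pair and -0.54 in the P0 pair. All 4 were negative, with a mean of -0.38 ± 0.22 that did not pass (limma adjusted p = 0.132, 95% interval -0.64 to -0.11).

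Vim, a mesenchymal filament gene that epithelium can also express, was likewise lowest in the E18 pair and next lowest in the P0 pair, at -0.22 and -0.05 at E16, -0.90 in the E18 pair and -0.61 in the P0 pair. Its mean was -0.45 ± 0.39 (limma adjusted p = 0.248). Of the 16 mesenchyme markers, however, 14 had means inside the control range, among them Pdgfra and Acta2, and the exceptions were Vim and Postn, a matrix gene (-0.21 ± 0.25). Over all genes 56.9% lay inside the control range. Of the 16, 0 passed in limma, also 0 at an unadjusted p under 0.05, against 4.36% and 20.9% of all genes. The list's median by pair ran from -0.04 to 0.01. A part of mesenchyme in the Frizzled ratios was not tested.

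The other Frizzled genes, Fzd4, Fzd5, Fzd8 and Fzd10, had means between -0.15 and 0.07, inside the control range. Fzd8 was negative in all 4 pairs, from -0.26 to -0.01, with a mean of -0.15 ± 0.10 (limma adjusted p = 0.201). Fzd5, which matures Paneth cells in the mouse, had a mean of -0.09 ± 0.086 over 3 probes. The co-receptor genes Lrp5 and Lrp6 had means of 0.09 ± 0.11 and -0.13 ± 0.28. Lrp6, singled out after its values were seen, was -0.39 and -0.34 in the E16 pairs, 0.05 in the E18 pair and 0.17 in the P0 pair, so its pairs were split by stage in the order opposite to Wls.

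R-spondin genes had ratios near 0. Rspo1, Rspo2 and Rspo3 had means of -0.03 ± 0.0449, -0.03 ± 0.0938 and 0.0001 ± 0.0368, with single pairs from -0.17 to 0.05.

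Of the 11 secreted antagonists, 0 passed in limma, also 0 at an unadjusted p under 0.05, and 10 were inside the control range. Over all genes 4.36% passed, 20.9% had an unadjusted p under 0.05 and 56.9% were inside that range. With so few antagonists, 0 passing says little. Dkk1, Dkk2, Dkk3, Dkk4, Frzb, Notum, Sfrp1, Sfrp2, Sfrp4 and Wif1 had means between -0.04 and 0.02, and single pairs from -0.12 to 0.09. Sfrp5, a Frizzled-related protein that traps Wnt ligands, was the exception. Its ratios were -0.59 and -0.997 in the E16 pairs, 0.19 in the E18 pair and -0.46 in the P0 pair. The E18 pair was positive and the other pairs negative, and the mean of -0.46 ± 0.49 did not pass (limma adjusted p = 0.331). Without the E18 pair it was -0.68 (adjusted p = 0.0963) and without the second E16 pair -0.29 (adjusted p = 0.622).

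Among genes of the cytoplasm and nucleus, Ctnnb1 (Entrez gene 12387), which encodes beta-catenin and serves cell junctions as well as Wnt signalling, had ratios of 0.43 and 0.48 in the E16 pairs, 0.31 in the E18 pair and 0.82 in the P0 pair. All 4 pairs lay above the control range. Spheroids stood 1.42-fold over organoids, a mean of 0.51 ± 0.22 that missed the threshold (limma adjusted p = 0.0793, 95% interval 0.24 to 0.77). With array weights, which favoured the E16 pairs, its adjusted p was 0.0350, and with the spread of ratios made equal across pairs 0.0489. Without the first or the second E16 pair it was 0.273 and 0.248, and with the E16 pairs averaged 0.261.

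Apc, Tcf7l1, Tcf7l2 and Lef1 had means between -0.03 and 0.16 and a smallest adjusted p of 0.192. The 3 probes of Apc, picked out after they were seen, disagreed, with means of 0.38, 0.07 and 0.02, the widest gap among the 17 members with several probes, whose median gap was 0.07. The probe with the highest mean read 0.38 and -0.05 in the E16 pairs, 0.54 in the E18 pair and 0.65 in the P0 pair. The nuclear factors Lef1 (-0.03 ± 0.030) and Tcf7l2 (-0.03 ± 0.060) were inside the control range.

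**Figure D3:**
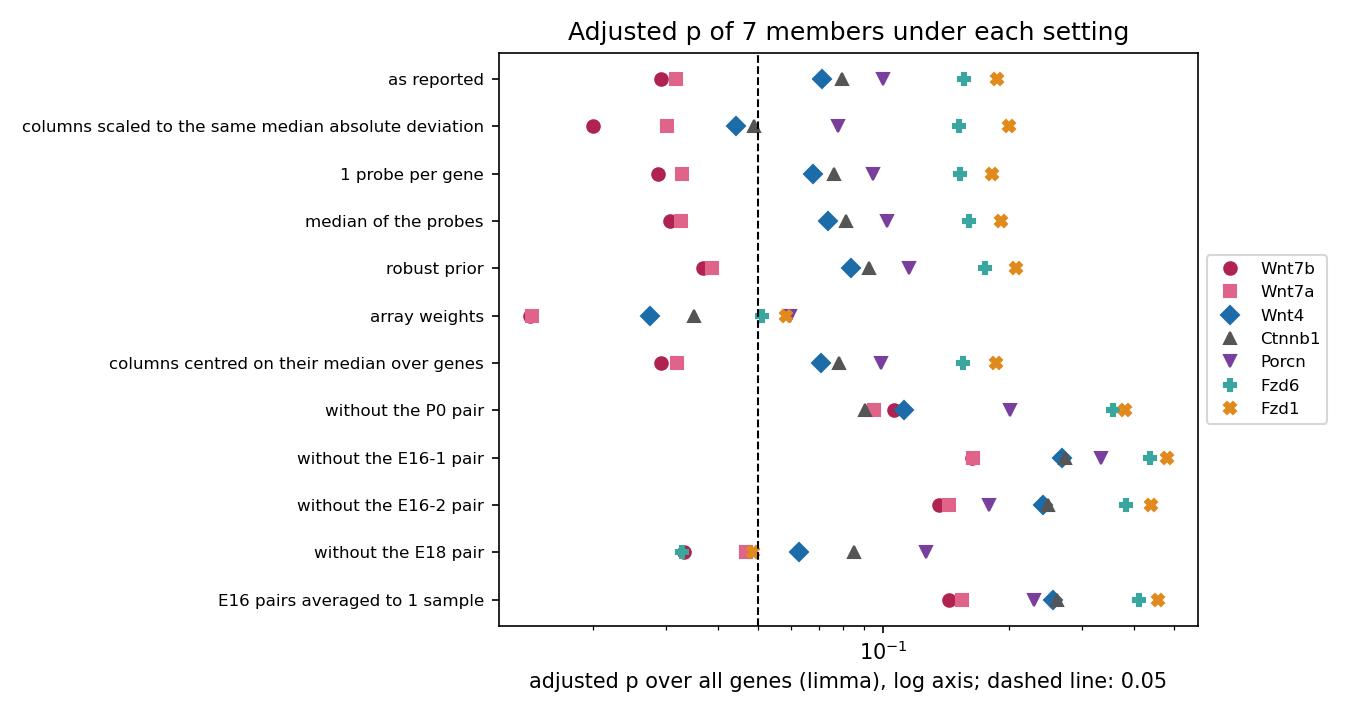
Adjusted p over all genes in limma (x axis, logarithmic) of 7 members under each way of handling the data (y axis), with the threshold of 0.05 as a dashed line. Wnt7a and Wnt7b lie left of the line as reported and right of it without the P0 pair, without either E16 pair and with the E16 pairs averaged, and Fzd6 and Fzd1 lie left of it only without the E18 pair.

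Other pathway genes were read from 2 lists that share Lgr5, Axin2, Nkd1 and Rnf43. Of 42 further pathway components, 1 passed higher and 1 lower, and 23 were inside the control range, with a median of -0.01. Over all genes 3.02% passed higher, 1.34% passed lower and 56.9% were inside that range. Vangl1, a membrane protein of planar cell polarity, rose, with a mean of 1.23 ± 0.13 (limma adjusted p = 0.0124), with ratios of 1.35 and 1.08 in the E16 pairs, 1.16 in the E18 pair and 1.33 in the P0 pair. All its pairs were above 1 and lay close together. Lgr5, the stem cell receptor for R-spondin, fell, with a mean of -1.92 ± 0.58 (adjusted p = 0.0415). Of the 11 genes that passed in these lists and in the marker lists, 0 passed when either E16 pair was left out or when both were averaged (smallest adjusted p 0.121 without the first, 0.0656 without the second and 0.0777 averaged). Without the P0 pair 3 passed, Vangl1, Cd44 and Epcam, and without the E18 pair 9, all but Lgr5 and Cdx1.

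Further components with a sizeable mean did not pass. Axin2, a feedback inhibitor that is also a target of the pathway, had a mean of -0.98 ± 0.42 (limma adjusted p = 0.0760). Ror2, a receptor for Wnt5a, had ratios of -0.64 and -0.71 in the E16 pairs, -0.998 in the E18 pair and -0.42 in the P0 pair. Its mean was -0.69 ± 0.24 (limma adjusted p = 0.0523). Celsr1 and Ctnnbip1, given beyond the 4 largest means, came next in size and went opposite ways. Their means were 0.67 ± 0.27 (limma adjusted p = 0.0723) and -0.67 ± 0.34 (adjusted p = 0.104).

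Of 21 known Wnt targets, 3 passed higher and 2 lower, and 6 were inside the control range, with a median of -0.07. The shares over all genes were 3.02% higher, 1.34% lower and 56.9% inside the range. The targets were chosen with earlier results of these data known. With all 4 pairs, the genes that rose were Ccnd1 (2.27 ± 0.57, limma adjusted p = 0.0295), the AP-1 subunit Fosl1 (1.05 ± 0.21, adjusted p = 0.0229) and Cd44 (0.79 ± 0.10, adjusted p = 0.0151). Those that fell were Lgr5 and Cdx1 (-1.74 ± 0.47, adjusted p = 0.0340). Jun, another AP-1 subunit, had a mean of -1.10 ± 0.52 that did not pass (adjusted p = 0.0916). Several of these genes are also known to answer to other pathways. Of the 21, 7 had a mean of -0.5 or less and 3 a mean of at least 0.5, against 5.42% and 5.52% of all genes. Genes of the list thus went both ways, with more of the large means negative. By pair the median of the list was -0.03 and 0.07 in the E16 pairs, -0.58 in the E18 pair and -0.07 in the P0 pair.

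Markers of cells other than epithelium were near 0. Besides mesenchyme, 5 of 6 endothelial and 3 of 4 measured leukocyte markers were inside the control range, and 0 of either list passed in limma (1 endothelial and 0 leukocyte genes at an unadjusted p under 0.05). Ratios cannot show whether these cells were present at a low and equal level on both sides. Of all genes, 56.9% were inside the control range, 4.36% passed and 20.9% had an unadjusted p under 0.05. Of 7 markers of the labelled epithelium, Krt18 passed higher (1.44 ± 0.21, limma adjusted p = 0.0151) and Epcam lower (-0.63 ± 0.095, adjusted p = 0.0181), and the level of either cannot be read from a ratio. Krt19 (1.07 ± 0.54, limma adjusted p = 0.101) and Krt8 (0.42 ± 0.16, adjusted p = 0.0645) were positive in all 4 pairs but did not pass. Cdh1, Vil1 and Cldn7 had means of -0.05, -0.28 and -0.06.

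A second comparison asked whether the ratio itself differed between the E16 animals and the later 2. Of the 51 members 0 passed in limma, as did 0% of all genes. At an unadjusted p under 0.05 stood 6 members, 11.8% against 19.1% of all genes: Wls, Lrp6, Wnt3, Wnt7a, Fzd2 and Fzd7. For Wls the mean ratio was 0.55 at E16 and -0.38 later, a difference of 0.93 with a 95% interval from 0.58 to 1.29 (limma adjusted p = 0.0958), the smallest adjusted p among the members. For Lrp6 it was -0.36 at E16 and 0.11 later, a difference of -0.47 (adjusted p = 0.107).

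The ratios of 3 members with negative means lay nearer 0 at E16. Wnt3 stood at -0.12 at E16 and -0.40 later (limma adjusted p = 0.138), Fzd2 at -0.20 and -0.55 (adjusted p = 0.205), and Fzd7 at -0.01 and -0.60 (adjusted p = 0.215). Wnt7a stood at 0.64 at E16 and 0.42 later (adjusted p = 0.182). Wnt7b, at 0.99 and 0.85, and Wnt4, at 1.01 and 1.09, had differences of 0.14 (95% interval -0.48 to 0.76) and -0.09 (95% interval -1.35 to 1.18).

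The stage comparison depended on the later pair that was kept. The members given here were picked from the fit without the P0 pair after its values were seen. Without the P0 pair, the difference (E16 minus later) was 1.07 for Wls, 0.98 for Fzd1, -1.16 for Wnt10a and 0.79 for Fzd7. Without the E18 pair it was 0.79, 0.34, -0.19 and 0.38 in the same order. Either comparison sets 2 E16 animals against 1 later animal, whose spread is assumed to be that of the E16 animals.

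**Figure D4:**
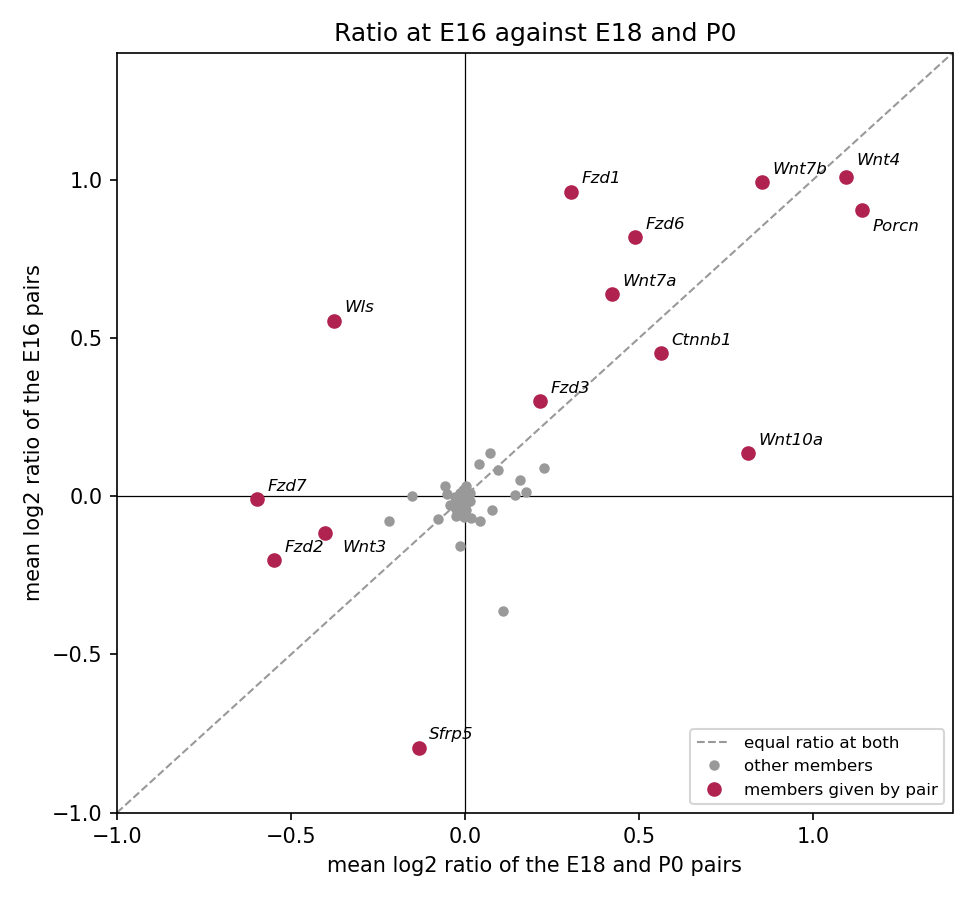
Mean log2 ratio of the E16 pairs (y axis) against that of the E18 and P0 pairs (x axis) for the 51 members, with the 14 members given by pair in red and the line of equal ratios dashed. Wls is the member farthest above the line, positive at E16 (0.55) and negative later (-0.38), while Wnt7b, Wnt4 and Porcn are high at both.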

How the data were processed

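The values were deposited by the authors and are taken as log2 ratios of spheroid over organoid RNA, 1 per probe and animal, for 38083 probes on 2-colour MEEBO arrays with dye swap, per the labels' protocols. Background correction, normalization and the way dye orientations were combined are steps for which the sources used here name no method. Medians of the columns lay between -0.0055 and -0.001. Depth does not apply to arrays, and their number limits the precision. Probes were named from GEO's platform annotation (22941 with 1 gene), all matched by gene ID to RefSeq. The 22305 named probes with an mM prefix were averaged to 15123 genes. The mean of the 4 pairs was tested against 0, and E16 against later pairs, with limma 3.58.1 in R 4.3.3 (lmFit, eBayes), two-sided, Benjamini-Hochberg over all genes, threshold 0.05, on scripts tested on simulated data. The animals are separate, and in the test of the mean the p-values measure a spread between animals that includes differences of stage. In the stage test they measure the spread within the E16 pairs and within the later pairs, which also differ in stage. Members and lists were chosen with earlier results of these data known. A member is given by pair if it passes, if its mean is at least 0.2 in size and outside the control range, or if any pair is at least 0.5 in size; of the lists, genes that pass and up to 4 with the largest means are named. Alternatives were other scalings, probe summaries, priors, weights and thresholds, and leaving out each pair.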

Additional observations from a re-analysis of the deposited data

Results flagged for a closer look

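Wls was positive in both E16 pairs and negative in the E18 and P0 pairs, the only one of the 14 members given by pair whose ratios separated by sign between the stages in that way. The difference of 0.93 (E16 minus later) was tested in limma and did not pass over all genes (adjusted p = 0.0958, with a range of 0.0300 to 0.534 over the alternatives). Dixon's test marked 0 of the 14 members for a pair far from the others.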

How the results depend on the processing

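Of all genes, 660 passed as reported. The count was 1417 with array weights, 1381 at a threshold of 0.1, 25 at 0.01, 4 with the E16 pairs averaged to 1 sample, and 0 to 740 with a pair left out (0 without the second E16 pair, with 2346 at an unadjusted p under 0.05). Of the members, 2 passed as reported, 4 with the spread of ratios made equal across pairs (Wnt4 and Ctnnb1 added), 4 with array weights (the same addition), 5 at a threshold of 0.1 (Porcn added as well), 0 at 0.01, 0 with the E16 pairs averaged (9 at an unadjusted p under 0.05), and 0 to 4 with a pair left out. In the stage comparison 0 genes passed as reported (2883 at an unadjusted p under 0.05), 509 at a threshold of 0.1, and 0 to 1544 with a pair left out. Wls changed sign with the E16 pairs averaged (-0.067) and ranged from -0.0707 to 0.29 with a pair left out. With a pair left out, the stage difference changed sign for Ctnnb1 (-0.36 to 0.14), Fzd3 (-0.10 to 0.27), Fzd6 (-0.13 to 0.79), Porcn (-0.68 to 0.21), Wnt4 (-0.61 to 0.44) and Wnt7b (-0.0728 to 0.35). With fewer pairs the fit has fewer degrees of freedom, and otherwise the cause was not tested. The planned stage block could not be fitted, since no correlation can be estimated from 3 stages among 4 pairs, and averaging the E16 pairs was chosen in its place after seeing the data. Each ratio joins spheroid and organoid of 1 animal, so the test is itself paired, and no further block applied. The number of arrays and the lack of brightness values limit what ratios near 0 can show.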
